A study of Homo sapiens with 3 samples.

Results

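The Rab GTPases, the largest branch of the Ras superfamily and the organisers of vesicle traffic, were followed through chromatin maps of THP1, an established human monocytic leukaemia line. Members were all protein-coding genes on chromosomes 1 to 22, X and Y whose symbol is RAB followed by a number and, at most, 1 letter and 1 digit, which gave 63 of 20033 genes. The wild-type cells had been treated for 24 h with PMA, a phorbol ester that drives them towards a macrophage-like state. Chromatin immunoprecipitation followed by sequencing gave 1 library for SIRT1, an NAD-dependent deacetylase, 1 for histone H3 acetylated at lysine 27 (H3K27ac), found at promoters and enhancers in use, and 1 input library, whose signal was not analysed here. There was no untreated group, so nothing below compares PMA with its absence. The design also gave 1 library per antibody, so no value has a replicate check and no p-value was formed.

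The deposited H3K27ac list held 50268 peaks, with a median of 15 fragments at the summit, and the SIRT1 list held 96805, with a median of 3. In the SIRT1 list 84.4% of peaks rested on 2 or 3 fragments and 144 reached a q of 0.05. As a check of the label, H3K27ac summits lay within 1 kb of a gene end for 7 of 12 monocyte and macrophage markers. That is near the share of all protein-coding genes, 53.0%, and ITGB2, TYROBP, FCER1G, FCGR1A and LYZ had no such summit. The count was 1 of 10 for B cell markers, and 0 of 10 each for T and NK cell and epithelial markers. Counting any peak that shares a base with that 1 kb, the numbers were 11, 2, 1 and 1, against 56.7% of all genes.

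Rab proteins are switches: bound to GTP they sit on a membrane and recruit effectors, and bound to GDP they are taken off it. Exchange factors (GEFs) turn them on, GTPase-activating proteins (GAPs) turn them off, escort and prenylation enzymes add the lipid anchor, and GDI proteins carry the inactive form through the cytosol. In macrophages they time phagosome maturation, in which RAB5 on the young phagosome gives way to RAB7 before fusion with lysosomes, and they steer recycling of receptors and secretion of granules and cytokines.

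Promoter sequences, taken from RefSeq on GRCh38.p14 as 250 bases before to 50 bases after a listed start, were found for 50 of the 63 members. RAB1A, RAB2A, RAB12, RAB15, RAB20, RAB26, RAB33A, RAB33B, RAB36, RAB37, RAB38, RAB39B and RAB44 had no entry. The 6 promoters below are shown because they carry the contrasts described later: the highest H3K27ac fold of all members (RAB7A), its close relative with the fewest CpG dinucleotides of these 6 (RAB7B), the leading early endosome genes (RAB5A and RAB31), and a pair of secretion genes of which 1 was acetylated (RAB27A) and 1 was not (RAB27B). Capitals mark, on either strand, the GC box GGGCGG, the ETS core CCGGAAG, the AP-1 site TGANTCA, the E-box CACGTG and the TATA letters TATAAA. RAB7A lies at chr3:128725933-128726232 on the plus strand, RAB7B at chr1:206003346-206003645 on the minus strand, RAB5A at chr3:19946847-19947146 on the plus strand and RAB31 at chr18:9708051-9708350 on the plus strand. RAB27A lies at chr15:55319074-55319373 on the minus strand and RAB27B at chr18:54717607-54717906 on the plus strand.
RAB7A: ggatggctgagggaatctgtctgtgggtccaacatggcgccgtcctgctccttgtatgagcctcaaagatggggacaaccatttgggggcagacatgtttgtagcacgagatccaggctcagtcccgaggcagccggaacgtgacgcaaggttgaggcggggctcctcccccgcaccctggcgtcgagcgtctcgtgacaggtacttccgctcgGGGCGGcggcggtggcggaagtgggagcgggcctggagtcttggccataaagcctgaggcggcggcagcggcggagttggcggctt
RAB7B: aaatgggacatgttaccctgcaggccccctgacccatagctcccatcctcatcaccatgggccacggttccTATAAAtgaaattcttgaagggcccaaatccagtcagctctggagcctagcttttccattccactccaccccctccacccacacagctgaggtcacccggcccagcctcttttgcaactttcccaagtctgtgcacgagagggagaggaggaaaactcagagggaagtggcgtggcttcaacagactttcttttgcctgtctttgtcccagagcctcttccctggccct
RAB5A: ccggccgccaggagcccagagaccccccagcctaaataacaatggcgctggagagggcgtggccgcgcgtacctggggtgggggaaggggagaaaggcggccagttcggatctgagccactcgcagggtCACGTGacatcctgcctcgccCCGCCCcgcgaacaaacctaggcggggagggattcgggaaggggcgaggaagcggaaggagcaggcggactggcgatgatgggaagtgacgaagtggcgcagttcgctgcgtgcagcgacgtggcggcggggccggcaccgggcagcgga
RAB31: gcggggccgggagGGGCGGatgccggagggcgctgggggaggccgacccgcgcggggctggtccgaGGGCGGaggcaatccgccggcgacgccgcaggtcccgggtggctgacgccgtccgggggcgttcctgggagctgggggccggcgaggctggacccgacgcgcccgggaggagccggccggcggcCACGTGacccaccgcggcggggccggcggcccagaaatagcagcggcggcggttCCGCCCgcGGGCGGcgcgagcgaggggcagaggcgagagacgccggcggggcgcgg
RAB27A: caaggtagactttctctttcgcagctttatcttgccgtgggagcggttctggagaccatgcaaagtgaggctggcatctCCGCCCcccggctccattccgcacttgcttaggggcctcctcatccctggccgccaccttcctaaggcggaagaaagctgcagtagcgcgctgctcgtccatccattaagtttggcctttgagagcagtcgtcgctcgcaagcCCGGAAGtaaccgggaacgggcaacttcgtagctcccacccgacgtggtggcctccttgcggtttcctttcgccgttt
RAB27B: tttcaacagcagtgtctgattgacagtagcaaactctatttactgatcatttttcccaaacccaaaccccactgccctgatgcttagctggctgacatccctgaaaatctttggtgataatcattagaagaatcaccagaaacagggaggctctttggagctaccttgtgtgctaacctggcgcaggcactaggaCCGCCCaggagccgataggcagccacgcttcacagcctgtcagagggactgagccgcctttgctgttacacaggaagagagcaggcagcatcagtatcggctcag

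All 300 bases of the RAB7A, RAB7B, RAB5A, RAB31 and RAB27A windows lay inside an H3K27ac peak, and none of the RAB27B window did. The windows held 25 CpG dinucleotides in RAB7A, 4 in RAB7B, 32 in RAB5A, 52 in RAB31, 23 in RAB27A and 6 in RAB27B. RAB5A and RAB31 each carried 1 CACGTG, RAB27A carried 1 CCGGAAG, and RAB7B carried TATAAA and none of the other 4 marked motifs.

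H3K27ac summits lay within 1 kb of an end of 41 of 63 Rab genes, or 65.1% (95% exact binomial interval 52.0 to 76.7), against 53.0% of all protein-coding genes, so the interval includes the share of all genes. Adding summits inside the record gave 49 of 63 Rab genes, or 77.8% (65.5 to 87.3), against 63.7% of all genes. That share also depends on record length, and by their median Rab records were longer than those of all genes. Where a listed start gave the strand, the mark sat at the start of the record: 33 of 50 Rab genes had a summit within 1 kb of the start, against 53.3% of all genes with a listed start. Only 3 had a summit within 1 kb of the stop, RAB5B, RAB24 and RAB40C, and all 3 were marked at the start too. Of the 15842 genes with a listed start, 7.22% had one at the stop, and 799 were marked at both ends. Over all 20033 genes, with or without a listed start, 4.85% were marked at both ends. Over every listed start, including those inside a record, 34 of 50 Rab genes had a summit within 1 kb, against 57.4% of all genes. The promoter window shared a base with an H3K27ac peak in 31 of 50 Rab genes, against 51.5% of all genes. It was covered over its whole length in 22 of 50 Rab genes, against 5396 of 15842 over all genes. The strongest start peak had its summit a median of 198 bp downstream of the start in Rab genes and 200 bp in all genes, and it was downstream in 23 of 33 Rab genes and in 75.3% of all genes. The histogram of summit distances shows both sets.

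**Figure D1:**
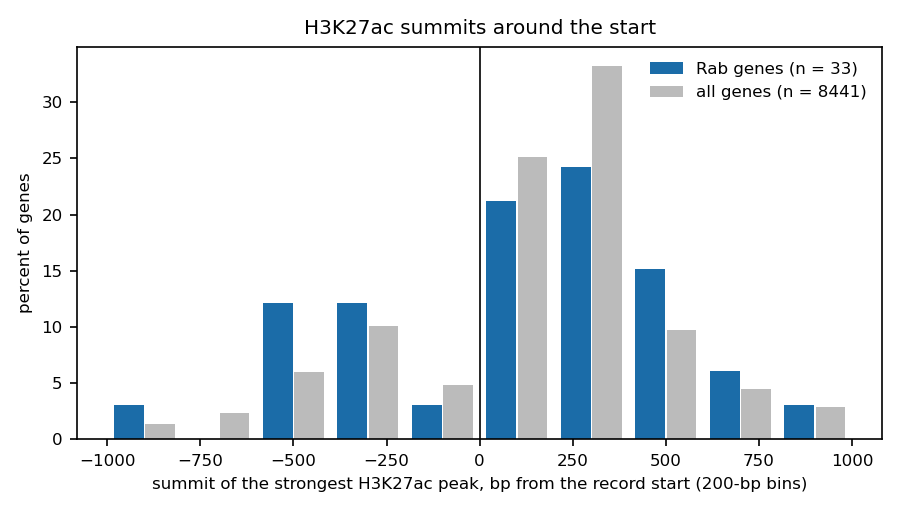
Distance of the strongest H3K27ac summit from the record start, in bp along the gene, as the percent of genes per 200-bp bin for the 33 Rab genes and the 8441 of all genes that had a summit within 1 kb of the start. Both distributions have their highest bars just downstream of the start, with medians of 198 and 200 bp.

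The fold of a peak, the authors' own value, is the signal at the summit over the local background. The strongest end peak of the 41 acetylated Rab genes had a median fold of 31.3 (95% interval of the median 18.0 to 35.3), against 17.8 over the 10621 acetylated genes of the genome, and 28 of the 41 lay above that value. Their median width was 1686 bp, against 1433 bp over all acetylated genes, and the median number of fragments at the summit was 92, against 59 over all acetylated genes. The number of fragments and the background rate were recovered from the deposited fold and p. The recovered background was a median of 2.64 times the lowest rate of the list at the Rab peaks and 2.42 times at all acetylated genes, and its part in the fold was not tested. Each fold comes from 1 library and whether the median differs from that of all genes was not tested.

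**Figure D2:**
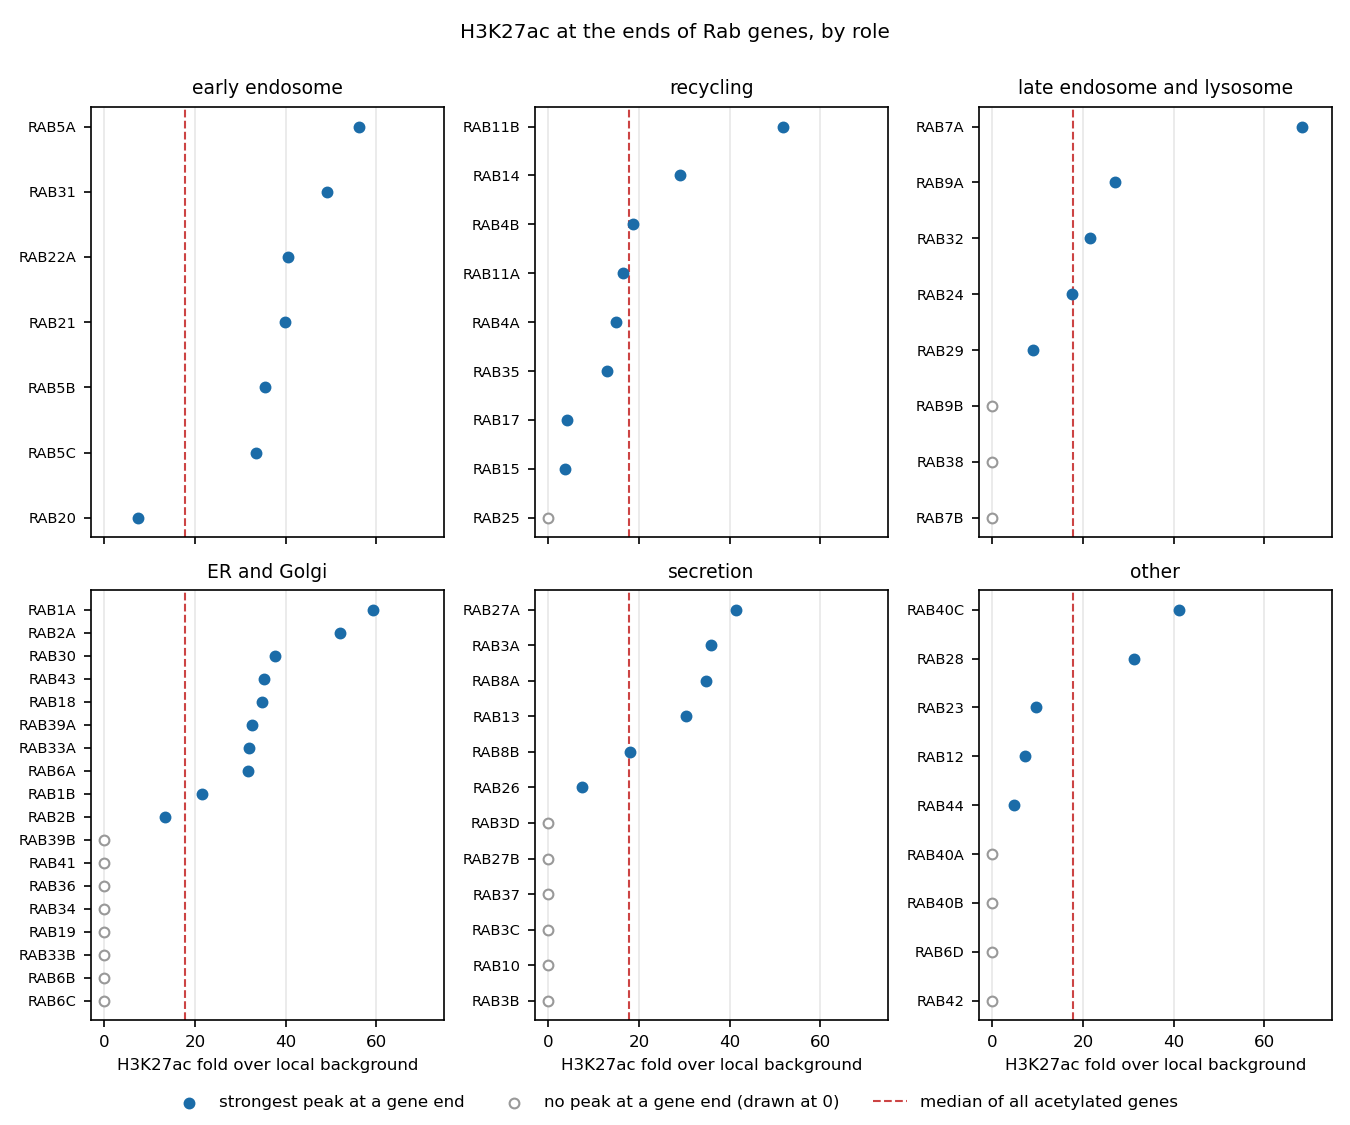
Fold of the strongest H3K27ac peak within 1 kb of a gene end, for each Rab gene, in 6 role groups; open circles at 0 are genes with no such peak, and the dashed line is the median of 17.8 over all acetylated genes. All 7 early endosome genes carry a peak, while 8 of 18 ER and Golgi genes and 6 of 12 secretion genes carry none. Of all protein-coding genes 53.0% carry one.

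In the early endosome group 7 of 7 members were acetylated, against 53.0% of all genes, with a median fold of 39.8. The role groups are small, and differences between them or from all genes were not tested. RAB5A, which with its isoforms organises fusion of early endosomes, had a fold of 56.2 on 149 fragments, from chr3:19945691-19948529. RAB31, an endosomal and trans-Golgi Rab related to RAB5, had 49.2 on 152 fragments, and RAB22A, which acts on early and recycling endosomes, had 40.6 on 145. RAB21, an integrin traffic Rab, had 39.8, RAB5B 35.5 and RAB5C 33.4. RAB20, which acts in phagosome maturation, was the low member, at 7.44 on 14 fragments. Its largest fold was not at an end but inside the record, at 16.8 on 43 fragments.

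Of the recycling Rabs 8 of 9 were acetylated, against 53.0% of all genes, with a median fold of 15.7. RAB11B, of the recycling endosome, had 2 end peaks, the stronger at 51.9 on 236 fragments. RAB14, which moves between Golgi and endosomes, had 28.9, and RAB4B, of fast recycling, had 18.7. RAB11A, RAB4A and RAB35 lay between 12.8 and 16.4. RAB17 and RAB15 were the weakest end peaks of all members, at 4.17 on 14 fragments and 3.73 on 10. RAB25, an epithelial relative of RAB11, had none, and its nearest H3K27ac summit was 6048 bp from the record.

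Among late endosome and lysosome Rabs 5 of 8 were acetylated, against 53.0% of all genes. RAB7A, which drives fusion of late endosomes, phagosomes and autophagosomes with lysosomes, had the highest fold of all members, 68.3 on 256 fragments, higher than that of 96.4% of acetylated genes. RAB9A, of transport from late endosomes to the Golgi, had 27.1, and RAB32, of lysosome-related organelles, had 21.4. RAB24, linked to autophagy, had 17.6 and RAB29, a Golgi Rab linked to the kinase LRRK2, had 9.02. RAB38, the close relative of RAB32 in pigment granules, had no H3K27ac peak in its 372 kb record, and its nearest summit outside was 159818 bp from an end. RAB9B, the second RAB9 gene, had none in its record either. RAB7B, a Rab of transport from endosomes to the Golgi, had a peak of fold 12.1 over its start, but with the summit 1407 bp inside the record.

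Of the ER and Golgi Rabs 10 of 18 were acetylated, near the 53.0% of all genes, with a median fold of 33.8. RAB1A, needed for transport from the ER to the Golgi, had 59.3 on 192 fragments, RAB2A, of the same early secretory route, had 52.1 on 210, and RAB30, of the Golgi, had 37.7 on 75. RAB43, RAB18, RAB39A, RAB33A, RAB6A, RAB1B and RAB2B followed, between 13.3 and 35.3. Without an end summit were RAB6B, RAB6C, RAB19, RAB33B, RAB34, RAB36, RAB39B and RAB41. At RAB34 the nearest summit lay 1746 bp away, in a peak of fold 41.1 that came within 128 bp of the record. RAB6C is a retrocopy related to RAB6A and RAB6D resembles it closely, so reads from these copies may have been discarded or shared, and the absence of peaks at both is uncertain.

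Of the secretion Rabs 6 of 12 were acetylated, near the 53.0% of all genes. RAB27A, which docks secretory granules and lysosome-related organelles at the plasma membrane, had 41.5 on 148 fragments. RAB3A, a Rab of regulated exocytosis, had 35.8, with its summit 953 bp upstream of the start and its promoter window outside the peak. RAB8A, of traffic to the plasma membrane, had 34.9, RAB13 had 30.3, RAB8B 18.0 and RAB26 7.37. The RAB13 summit lay 252 bp from the record start, but more than 1 kb from the nearest listed start. The RAB13 promoter window lay under another peak, of fold 19.6 on 114 fragments, with its summit 296 bp from a listed start. By the record ends, that peak was counted as inside. RAB26 had end peaks only at the higher-coordinate end of its record. Its strand was not listed, so whether that end is the start or the stop was not determined. RAB3B, RAB3C, RAB3D, RAB27B and RAB37, Rabs of regulated secretion in neurons, glands or mast cells, had no end summit, nor had RAB10. At RAB10, which serves plasma membrane delivery, the start lay inside a peak of 2831 bp with a fold of 25.1 on 130 fragments, and its summit was 1127 bp downstream of the record start and 328 bp from another listed start. In the remaining group 5 of 9 were acetylated, near the 53.0% of all genes. RAB40C had 41.2, RAB28 31.3 and RAB23, a ciliary Rab, 9.71. RAB12 had 7.22 on 23 fragments and RAB44 4.85 on 18. RAB40A, RAB40B, RAB42 and RAB6D had none.

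The 1 kb limit decided a few of these calls. Just inside it were RAB3A at 953 bp, RAB43 at 827 bp and RAB8B at 734 bp, and just outside were RAB10 at 1127 bp, RAB7B at 1407 bp, RAB34 at 1746 bp, RAB3D at 1767 bp and RAB42 at 1770 bp. Counting any peak that shares a base with the window added RAB7B, RAB10 and RAB34, which gave 44 of 63 Rab genes, or 69.8% (57.0 to 80.8), against 56.7% of all genes. That share lies just below the interval, whereas under the summit rule the share of all genes lies inside it. At 8 of the 41 members the strongest peak was also within 1 kb of an end of another protein-coding gene: RPS27 for RAB13, EFHB for RAB5A, PRELID1 for RAB24, PRIM2 for RAB23, GSN for RAB14, TOX4 for RAB2B, MIA for RAB4B, and PIGB and PIGBOS1 for RAB27A. A peak there cannot be assigned to 1 of the neighbours. How often this holds over all acetylated genes was not computed, so the 8 of 41 has no background.

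Among the 14 Rab numbers with more than 1 gene, 6 had every copy acetylated and 8 were split. The complete ones were RAB1, RAB2, RAB4, RAB5, RAB8 and RAB11. In the split ones a single copy carried an end summit: RAB3A of the 4 RAB3 genes, RAB6A of the 4 RAB6 genes, RAB7A, RAB9A, RAB27A, RAB33A, RAB39A, and RAB40C of the 3 RAB40 genes. For RAB7 the split rests on the 1 kb limit, since the RAB7B start lay under a peak.

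Promoters of acetylated Rab genes held more CpG dinucleotides by their median, with overlapping ranges, and the difference was not tested. The 33 promoters of Rab genes with H3K27ac at an end held a median of 30 CpG dinucleotides per 300 bases (range 7 to 52), and the 17 of Rab genes without it a median of 15 (range 2 to 35). Over all genes the medians were 26 in 8786 promoters with the mark and 10 in 7056 without. The letters of 9 motifs were searched on both strands. GGGCGG occurred in 29 of 33 acetylated and 10 of 17 other Rab promoters, and in 71.0% and 42.6% of all promoters with and without the mark. CCGGAAG occurred in 9 of 33 and 0 of 17 Rab promoters, and in 21.6% and 4.83% of all promoters with and without the mark. CACGTG occurred in 6 of 33 and 0 of 17, and in 10.6% and 6.58% of those classes over all genes. For these 3 the share was higher with the mark in both sets. TATAAA occurred in 0 of 33 and 4 of 17, and in 5.45% and 15.1% of those classes over all genes. The 4 were RAB7B, whose window lay under H3K27ac, RAB40A, and RAB6C and RAB6D, where the absence of peaks is uncertain. TGANTCA occurred in 1 of 33 and 2 of 17, and in 4.29% and 7.45% over all genes. The NRF1 motif occurred in 5 of 33 and 2 of 17, and in 12.9% and 3.23% over all genes. The CRE letters TGACGTCA, the YY1 motif and the PU.1 letters GAGGAAGT each occurred in at most 2 of the 50 Rab promoters, and in 2.56%, 1.33% and 2.50% of all promoters. Exceptions were found on both sides. RAB10, RAB40B, RAB9B and RAB6B had 35, 34, 31 and 24 CpG dinucleotides and no mark at an end, and RAB17 and RAB29 had 7 and 12 with it. The whole RAB10 window lay under H3K27ac, while the windows of RAB17, RAB23, RAB3A and RAB43 shared no base with a peak. Sorted by the window itself, 31 covered Rab promoters held a median of 30 CpG dinucleotides and 19 uncovered ones a median of 15. The letters are counts in a fixed window and say nothing of a bound factor.

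**Figure D3:**
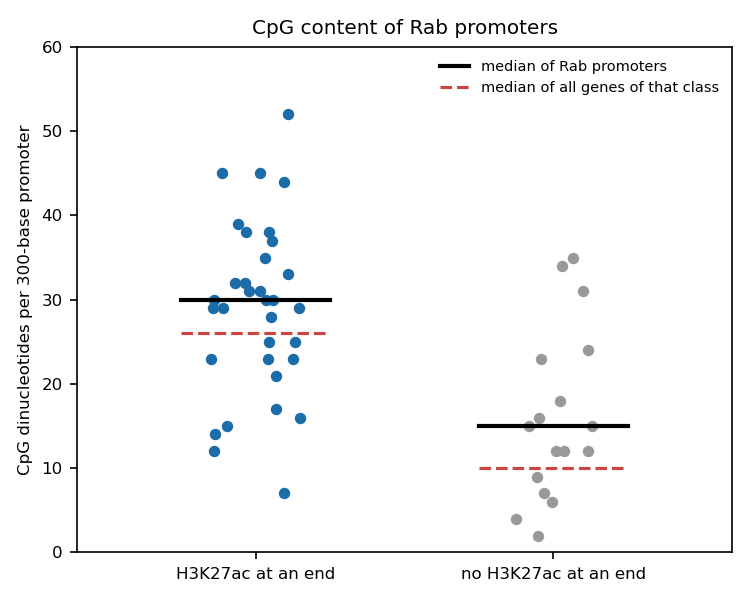
CpG dinucleotides in the 300-base promoter window of each Rab gene with a listed start, for the 33 genes with H3K27ac at an end on the left and the 17 without on the right; black lines are medians of the Rab genes and dashed red lines the medians of all genes of that class. The groups overlap, with medians of 30 and 15.

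H3K27ac inside the records was concentrated in a few members. Of the 63 Rab genes 26 had at least 1 summit more than 1 kb from both ends, or 41.3% (29.0 to 54.4), against 32.1% of all genes. This share depends on record length, with a median of 30.0 kb for Rab genes and 24.1 kb for all genes. Together they held 95 such peaks in 3.06 Mb, which is 31.0 per Mb (95% exact Poisson interval 25.1 to 37.9), against 17.7 per Mb over the records of all genes. Without RAB31 the rate was 24.8 per Mb (19.4 to 31.2). These intervals cover counting error only, and peaks of 1 record are not independent. Compared with the 48 end peaks, the 95 internal peaks were weaker, with a median fold of 6.71 against 24.3 at the ends, and narrower, at 678 against 1577 bp at the ends.

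RAB31 held 23 internal peaks, the most of any member, and H3K27ac covered 23.2% of its 154 kb record. The strongest spanned chr18:9739643-9745544, 5902 bp wide, with a fold of 38.7 on 94 fragments and its summit 34199 bp from the start. Another, of 5764 bp at chr18:9754239-9760002, had 29.9 on 68 fragments, the peak at chr18:9770530-9773127 had 24.8, and the one at chr18:9826014-9829698 had 21.4. The 19 remaining internal peaks lay between folds of 3.03 and 13.2. Beside the start peak of fold 49.2, RAB31 carried peaks along most of its length, the last summit 142030 bp into the gene.

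RAB27A followed with 10 internal peaks, the strongest at chr15:55288260-55290604, with a fold of 27.3 on 66 fragments, 28877 bp from the start. RAB8B had 7, of which the peak at chr15:63246169-63247241 had a fold of 25.3 on 48 fragments, against 18.0 on 52 at its own start peak. The recovered background was 0.937 fragments at that internal peak and 1.95 at the start peak, so its higher fold does not mean more fragments. The RAB8B peak at chr15:63211355-63214077 had a fold of 18.1. RAB5C had 5, which with the start peak covered 35.4% of its 30.0 kb record, and the strongest had a fold of 16.3. RAB35 had 5, between folds of 4.20 and 8.37. Among members with no end summit, RAB10 had 4 internal peaks, RAB6B and RAB27B 3 each and RAB7B and RAB37 2 each. In RAB27B the highest fold of these was 8.11 and in RAB6B 6.10, and in the map of records the 5 members with most internal peaks are drawn to scale.

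**Figure D4:**
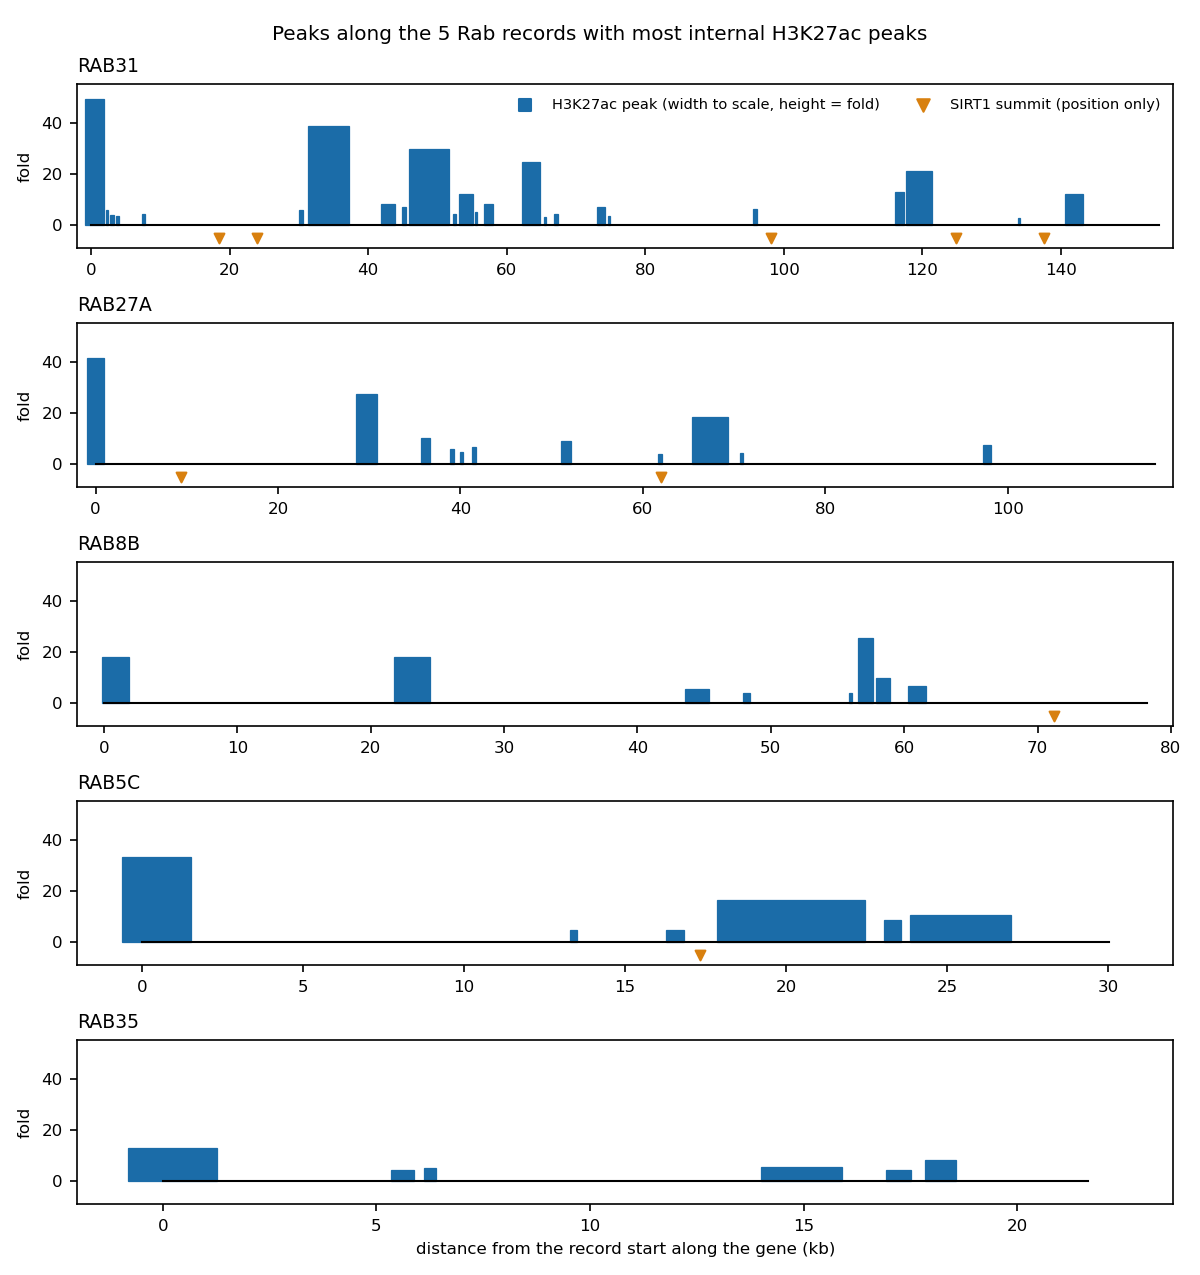
H3K27ac peaks (blue, width to scale, height is the fold) and SIRT1 summits (orange triangles, position only) along the 5 Rab records with most internal H3K27ac peaks, in kb from the record start; the black line is the record. RAB31 shows 23 internal peaks, with the widest 34 to 50 kb from the start, and RAB35 5 low ones.

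SIRT1 summits were uncommon at gene ends, in Rab genes as in all genes. A summit lay within 1 kb of an end of 3 of 63 Rab genes, or 4.76% (0.993 to 13.3), against 9.34% of all genes, a share inside that interval. All 3 were at the stop of the record, where 6.43% of all genes with a listed start had one, and 0 of 50 Rab genes had a SIRT1 summit within 1 kb of the record start, against 3.43% of all genes. Over every listed start the count was also 0 of 50, against 4.28% of all genes, and 0 of 50 promoter windows shared a base with a SIRT1 peak, against 1.13%. With 50 genes, a count of 0 has an exact upper bound of 7.11%. At RAB22A the peak, 627 bp beyond the stop at chr20:58367948-58368248, had a fold of 3.54 on 4 fragments. At RAB41 it had 2.94 on 3 fragments and at RAB27B 2.20 on 2. RAB22A was the 1 member with both marks at an end, H3K27ac at its start and SIRT1 at its stop, against 3.39% of all genes with both.

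Inside the records SIRT1 peaks were found in 35 of 63 Rab genes, or 55.6% (42.5 to 68.1), against 48.0% of all genes. Of the 63, 37 had SIRT1 at an end or inside, against 52.3% of all genes, and 22 combined H3K27ac at an end with SIRT1 inside, against 26.3%. Counting any shared base left 3 of 63 with SIRT1 at an end, against 10.8% of all genes. There were 88 peaks, 28.8 per Mb (23.1 to 35.4), against 32.4 per Mb over all gene records, a value inside the interval of the Rab genes. The number per gene followed record length, with a Spearman rho of 0.76 over the 63 genes, while for H3K27ac it was 0.35. Both are descriptions, since all points come from the same libraries. RAB38, the longest record, had 18 SIRT1 peaks and no H3K27ac, RAB3C 7, RAB6B 6, and RAB6A, RAB31 and RAB37 5 each. For RAB38 this was 48.7 per Mb (28.9 to 76.9). Rab genes with H3K27ac at an end had 21.8 SIRT1 peaks per Mb (15.3 to 30.1) and those without it 36.9 (27.6 to 48.5). The intervals overlap, RAB38 alone gave 18 of the 52 peaks in the genes without the mark, and the difference was not tested. All genes split in the same direction, at 27.7 and 36.9 per Mb.

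**Figure D5:**
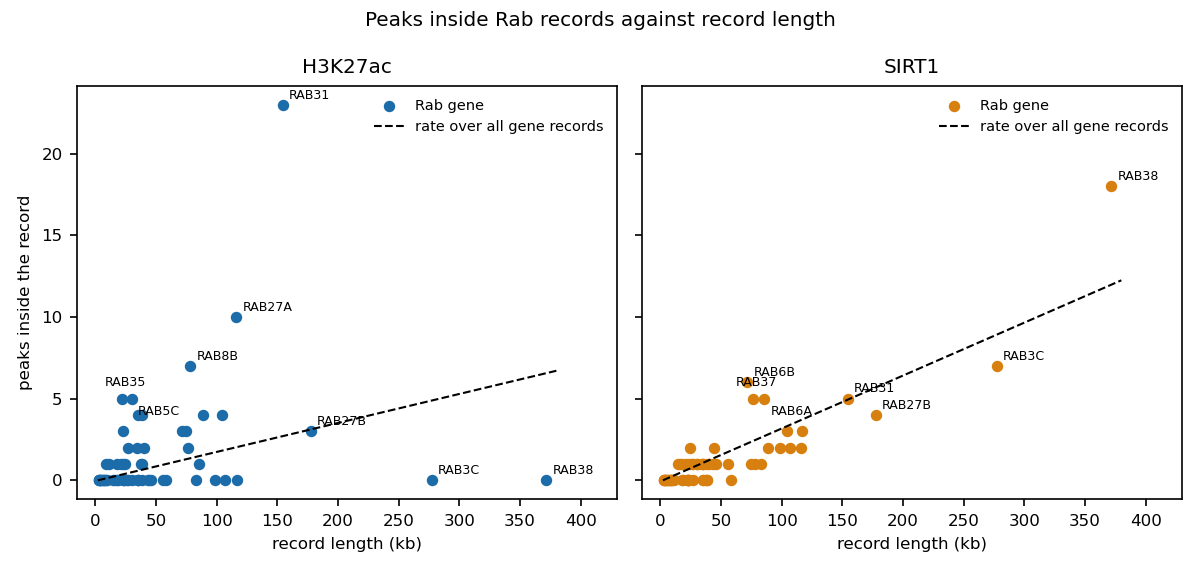
Peaks inside each Rab record against record length in kb, for H3K27ac on the left and SIRT1 on the right; the dashed line is the rate over all gene records, 17.7 and 32.4 per Mb. Most SIRT1 counts lie near the line, with RAB38 above it at 18, and RAB31 with 23 and RAB27A with 10 H3K27ac peaks lie well above theirs.

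The depth behind these SIRT1 calls was low. Of the 91 SIRT1 peaks at or in Rab genes, 44 rested on 2 fragments, 32 on 3 and 15 on 4 or more, and 0 reached a q of 0.05. The highest fold was 4.41, on 5 fragments in RAB3C at chr5:58822819-58823253. Of the 91, 1 shared a base with an H3K27ac peak, or 1.10% (0.0278 to 5.97), against 1.10% of SIRT1 peaks at or in all genes. It lay in RAB27A at chr15:55257120-55257390, with a fold of 2.94 on 3 fragments.

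H3K27ac also marked most genes of the machinery that acts on Rabs, listed with earlier results of these data known. Of 90 regulators and effectors 78 had H3K27ac at an end, or 86.7% (77.9 to 92.9), against 53.0% of all genes, with a median fold of 23.2; the difference from the share of the Rab genes was not tested. By class these were 7 of 8 escort, prenylation and GDI genes, 28 of 30 GEFs, 18 of 19 GAPs and 25 of 33 effectors. Among lipidation and cycling genes GDI2 had a fold of 59.0 and RABGGTA, a subunit of the geranylgeranyl transferase, had 46.8. Among GEFs DENND4B had 125, DENND6A 52.9 and DENND2D 48.7. Among GAPs TBC1D5, which acts on RAB7, had 56.6, RABGAP1 36.3 and TBC1D10B 36.2. Among effectors MICALL1, of recycling endosomes, had 62.3, EEA1, the RAB5 tether, 58.1, and RILPL2 55.4.

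The 8 effectors without an end summit were MLPH, SYTL4, SYTL5, EXPH5, RIMS1, RPH3A, MICAL1 and RAB11FIP4. Effectors that bind RAB27 were found on both sides. SYTL3 with a fold of 41.1, SYTL2 with 8.01, SYTL1 with 4.16 and UNC13D, which acts in granule release of blood cells, had an end summit, and MLPH, SYTL4, SYTL5 and EXPH5 had none. These effectors were picked out after their values were seen. MLPH carried 11 H3K27ac peaks inside its record, up to a fold of 47.7. SIRT1 had an end summit at 7 of the 90, or 7.78% (3.18 to 15.4), against 9.34% of all genes, a share inside that interval. They were TBC1D2, TBC1D10A, DENND1C, DENND2B, MON1A, RAB11FIP4 and RAB11FIP5, with folds of 2.13 to 3.67.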

How the data were processed

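Chromatin of PMA-treated THP1 cells was sequenced as 3 libraries, of which the H3K27ac and SIRT1 peak lists were used. Per the submitters' processing notes, MACS2 and deepTools were used with build hg38; the sources used here state no settings, filters or total reads per library. Each deposited line gave a peak's limits, an integer score, the fold over local background, −log10 p and −log10 q, and the summit offset, all as the authors' caller wrote them. The deposited score was not used.

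From these, a gene was called marked when a summit lay within 1 kb of either end of its RefSeq GRCh38.p14 record, and a peak was inside when its summit lay further in. Fragments at each summit were solved from the deposited fold and p, assuming a Poisson model with 1 added to each term. Peaks simulated under that same model were recovered at 100.0% in both lists. This checks the solving, and cannot show that the authors' caller used the model. Of the deposited peaks, 3 of 50268 for H3K27ac and 2 of 96805 for SIRT1 did not give exactly 1 solution. Shares carry 95% exact binomial intervals and rates exact Poisson ones, which cover counting error only. With 1 library per antibody no test between groups was possible. Named genes were, per role, the 3 highest folds and every unmarked member, all genes with SIRT1 at an end, the 5 members with most internal peaks of each kind, split paralogs, and the top 3 regulators per class, of which 1 is not reported here. Members and lists were chosen with earlier results of these data known. Alternatives were other windows, any shared base, a fold or q minimum, nearest-gene assignment, and, added after seeing the data, a fragment minimum and listed starts. Calculations ran in Python 3.11.15 with scipy 1.17.1 for the intervals, pandas 2.3.3 and numpy 2.4.6 for the tables, and matplotlib 3.10.9 for the plots.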

Additional observations from a re-analysis of the deposited data

How the results depend on the processing

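Of 46 recomputed values, 34 stayed within 1.5 times of the reported one. H3K27ac at an end ranged from 35 of 63 Rab genes with 500 bp, against 44.6% of all genes, to 46 with 2500 bp, against 58.5%. By listed starts it was 34 of 50, against 57.4% of all genes. The median fold ranged from 29.6 to 32.3. A peak given only to the gene with the nearest end left 36 of 63 Rab genes, against 47.1% of all genes, without RAB2B, RAB13, RAB14, RAB23 and RAB24. The SIRT1 counts moved. Rab genes with SIRT1 at an end numbered 1 with a 500 bp window, against 4.83% of all genes, and 7 with 2500 bp, against 21.7%. They numbered 0 with a fold of at least 4, against 0.140% of all genes, and 0 with −log10 q of at least 5, against 0%. With at least 4 fragments, a minimum chosen after seeing the data, the count was 1, against 1.61% of all genes. Both marks at an end numbered 0 with 500 bp, 4 with 2500 bp, 0 with the fold minimum and 0 with the q minimum. The share of all genes with both marks was not computed under these settings, so these counts have no background. SIRT1 inside the record numbered 1 with the fold minimum, against 2.55% of all genes, and 0 with the q minimum, against 0%. With at least 4 fragments it numbered 10 of 63, near the 16.3% of all genes. No paired analysis was possible because each antibody had 1 library. The SIRT1 counts rest on few fragments: no SIRT1 peak at or in a Rab gene rested on more than 5 fragments.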
